A study of Homo sapiens with 24 samples.

Results

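The genes described here are 9 genes of the phosphoinositide 3-kinase (PI3K) and FOXO axis, namely FOXO1, FOXO3, FOXO4, PIK3CD, PIK3R1, PIK3R3, PIK3IP1, INPP5D and KLF2. Their rows were found by gene symbol among the 25161 symbols of the expression table, and each of the 9 had 1 row, so that no choice between rows was needed. The 24 samples were each hybridized to a Clariom D array for human transcripts, and all values are log2 expression as normalized by the authors. Cells were harvested after 72 h with the solvent DMSO, with 1 µM Entospletinib (Ento), with 0.01 µM AZD5153 (AZD) or with both agents together (Ento+AZD), in DG-75 or in SU-DHL-4 cells. Both are established human lymphoma lines, DG-75 from Burkitt lymphoma and SU-DHL-4 from diffuse large B-cell lymphoma, so that each disease is represented by 1 line. The 8 groups held 3 arrays each, from separate cultures according to the series' design text. Ento inhibits the kinase SYK, which relays signals of the B-cell receptor, and AZD inhibits BET proteins, which read acetylated histones.

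In B cells, receptor signals recruit PI3K to the membrane, where a catalytic subunit such as p110 delta, held by a regulatory subunit, makes the lipid PIP3. PIP3 activates AKT, and AKT phosphorylates FOXO transcription factors, which then leave the nucleus and no longer drive their target genes. Much of this control acts on proteins and their location, which RNA levels do not measure.

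The labelled cell type was checked first. All 5 B-cell markers examined had line means between 8.42 and 12.17 in SU-DHL-4, or 7.31 to 11.56 in DG-75, and the 4 T-cell markers lay between 1.71 and 3.95 in SU-DHL-4 and between 1.51 and 3.97 in DG-75. Lists of other cell types were less uniform. Of 3 epithelial markers EPCAM stood at 2.63 and 2.29 in SU-DHL-4 and DG-75 but KRT8 at 7.11 and 7.02, and of 3 fibroblast markers PDGFRB stood at 4.18 and 4.20 but COL1A2 at 7.14 and 7.10. The plasma cell marker XBP1 stood at 5.67 and 7.56, with PRDM1 at 2.35 and 2.67, and the 4 myeloid markers lay between 2.48 and 5.64. Levels of different probes are not on one scale, and the part of such RNA in the results was not tested. Array medians lay between 4.89 and 5.14, and replicate arrays correlated at 0.981 to 0.992 across genes. RNA came from whole cultures, so a change within every cell and a change in the share of expressing cells cannot be told apart.

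FOXO proteins bind a core DNA motif, and promoter windows of the 9 genes were searched for GTAAACA and GTAAATA on both strands. The windows were those of RefSeq on GRCh38.p14, from 250 bases before to 50 bases after an annotated start. Of the 23 windows of the 9 genes 3 held a match, which is 13.0%, against 5.97% of all 35116 windows. GTAAACA alone was in 3.42% of all windows and GTAAATA in 2.67%. The 3 matches are shown because they lie at PIK3R3, the one gene of the 9 that changed against DMSO, and at PIK3IP1 and FOXO4. Sequences read 5′ to 3′ on the strand of the gene, and capitals mark the match, which is written as its reverse complement at PIK3R3 and PIK3IP1. The match begins at position -29 from 1 of the 6 annotated PIK3R3 starts. At PIK3IP1 it begins at +17 from 1 of the 2 starts, and at FOXO4 at +24 from the 1 start. No binding was measured, so that a match describes letters only.
PIK3R3 (chr1:46131772-46132021, minus strand): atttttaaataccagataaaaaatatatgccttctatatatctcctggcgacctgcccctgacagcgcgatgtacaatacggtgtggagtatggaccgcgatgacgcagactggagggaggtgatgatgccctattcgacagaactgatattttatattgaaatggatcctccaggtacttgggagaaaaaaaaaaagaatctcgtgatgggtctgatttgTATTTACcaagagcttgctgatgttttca
PIK3IP1 (chr22:31292454-31292483, minus strand): taaagagaggcTGTTTACcagaacagcata
FOXO4 (chrX:71095863-71095892, plus strand): cccggcgagtgGTAAACAgagacgtcagga

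PIK3R3, which encodes the regulatory PI3K subunit p55 gamma, was the only gene of the 9 that passed an adjusted p of 0.05 against DMSO, and it did so with AZD and with Ento+AZD in DG-75. It stood at 6.89, 6.29 and 7.61 in the 3 DMSO arrays of DG-75 and at 6.69, 6.47 and 7.38 in the Ento arrays. With AZD it stood at 8.12, 7.84 and 8.18, and with Ento+AZD at 8.08, 7.58 and 8.11. Every AZD array was above every DMSO array, while the lowest Ento+AZD array lay just under the highest DMSO array. The change with AZD was 1.12 (95% interval 0.70 to 1.53), a 2.17-fold increase with an adjusted p of 0.0487 (limma, Benjamini-Hochberg over 25575 rows). PIK3R3 was thus called, since calls required an adjusted p under 0.05 and a fold change over 2, and it was 1 of 46 called rows, which is 0.18% of those tested, while 0.293% of rows passed the test and 4.5% had all AZD arrays above all DMSO arrays. The change with Ento+AZD was 0.99 (95% interval 0.58 to 1.41, adjusted p = 0.0251 with limma), which passed the test and fell short of the fold minimum, where 2.39% of rows passed the test and 0.833% were called.

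Ento moved PIK3R3 little in DG-75, by -0.08 (95% interval -0.50 to 0.33, adjusted p = 1.0 with limma). Ento+AZD stood 1.08 above Ento (95% interval 0.67 to 1.49, adjusted p = 0.0246 with limma), a 2.11-fold difference that was called, as were 0.657% of rows, and every Ento+AZD array lay above every Ento array, as in 4.65% of rows. Ento+AZD stood -0.12 from AZD (95% interval -0.53 to 0.29, adjusted p = 1.0 with limma), and the combination departed from the sum of both single-agent changes by -0.04 (95% interval -0.62 to 0.54).

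In SU-DHL-4 PIK3R3 did not pass the test. It stood at 7.93, 7.65 and 6.83 in the DMSO arrays and at 7.85, 7.40 and 7.22 in the Ento arrays. The gene stood at 7.44, 8.07 and 8.02 with AZD and at 8.08, 7.35 and 8.29 with Ento+AZD. All 4 groups overlapped, and the changes against DMSO of 0.37 with AZD (95% interval -0.30 to 1.04, adjusted p = 0.701) and 0.44 with Ento+AZD (95% interval -0.23 to 1.11, adjusted p = 0.599) did not pass limma's test. The response to AZD differed between the lines by -0.74, SU-DHL-4 minus DG-75 (95% interval -1.58 to 0.09, adjusted p = 0.85 with limma), so a difference between the lines was not shown. Over both lines PIK3R3 rose by 0.74 with AZD (adjusted p = 0.0492) and by 0.71 with Ento+AZD (adjusted p = 0.0408) in limma, short of the fold minimum, where 4.66% and 8.49% of rows passed.

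**Figure D1:**
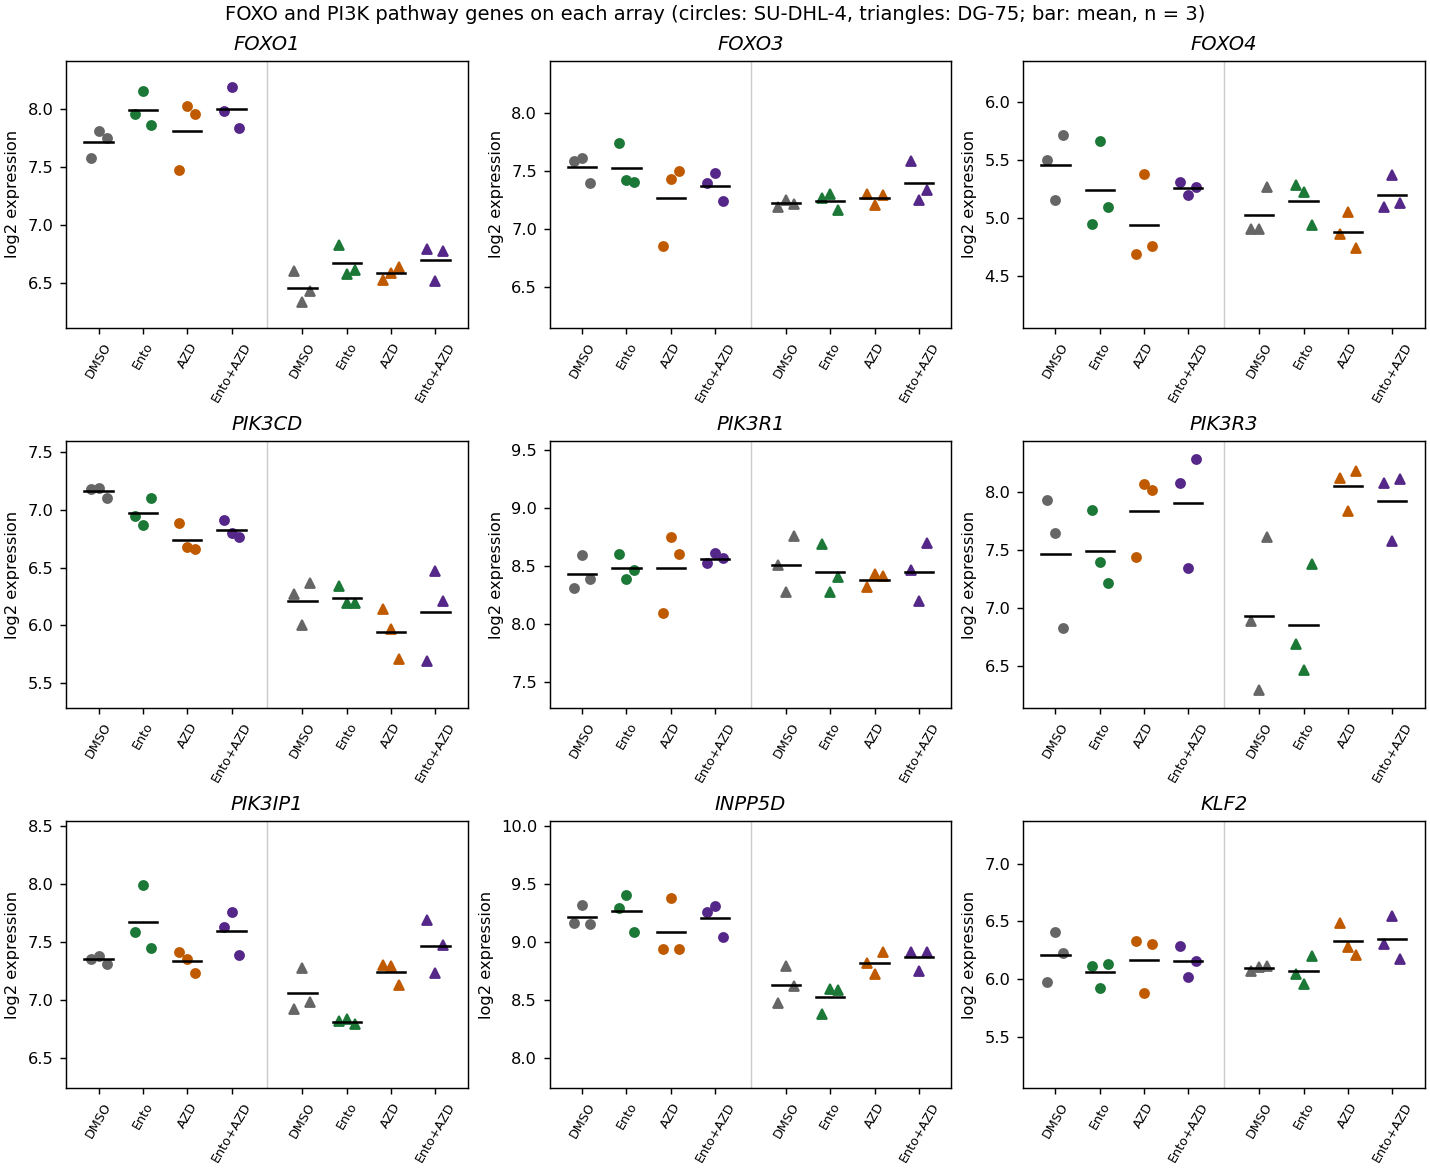
Log2 expression of each of the 9 genes on each of the 24 arrays (y axis), by treatment (x axis), with SU-DHL-4 as circles on the left of each panel, DG-75 as triangles on the right and bars at the means of 3 arrays. PIK3R3 in DG-75 is higher with AZD and Ento+AZD than with DMSO or Ento, and FOXO1, PIK3CD and INPP5D are higher in every SU-DHL-4 array than in any DG-75 array.

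The PIK3R3 values rested on few arrays. With any 1 of the 6 arrays of the AZD comparison in DG-75 left out, the change lay between 0.95 and 1.32 and limma's adjusted p between 0.0897 and 0.364, so that the call held in 0 of 6 fits. That loss was not particular to PIK3R3, since 46 rows were called with all arrays and 0 of all rows in any fit with arrays left out. For Ento+AZD against DMSO the adjusted p stayed under 0.05 in 2 of 6 such fits, those that omitted the third array of DMSO or of the combination. For Ento+AZD against Ento it did so in 2 of 6, those that omitted the third array of Ento or of the combination. Without the replicate number as a block the adjusted p was 0.1 for AZD, 0.102 for Ento+AZD and 0.0865 for Ento+AZD against Ento, so that each of these results depended on the block. Over both lines the adjusted p stayed under 0.05 in 2 of 12 fits for AZD, those that omitted the first DMSO or the first AZD array of SU-DHL-4, and in 3 of 12 for Ento+AZD, those that omitted the first or second DMSO array or the second Ento+AZD array of that line. The adjusted p over both lines was 0.0845 for AZD and 0.0667 for Ento+AZD without the block, and 0.0713 and 0.0555 with a block shared by the lines, so that neither passed.

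**Figure D2:**
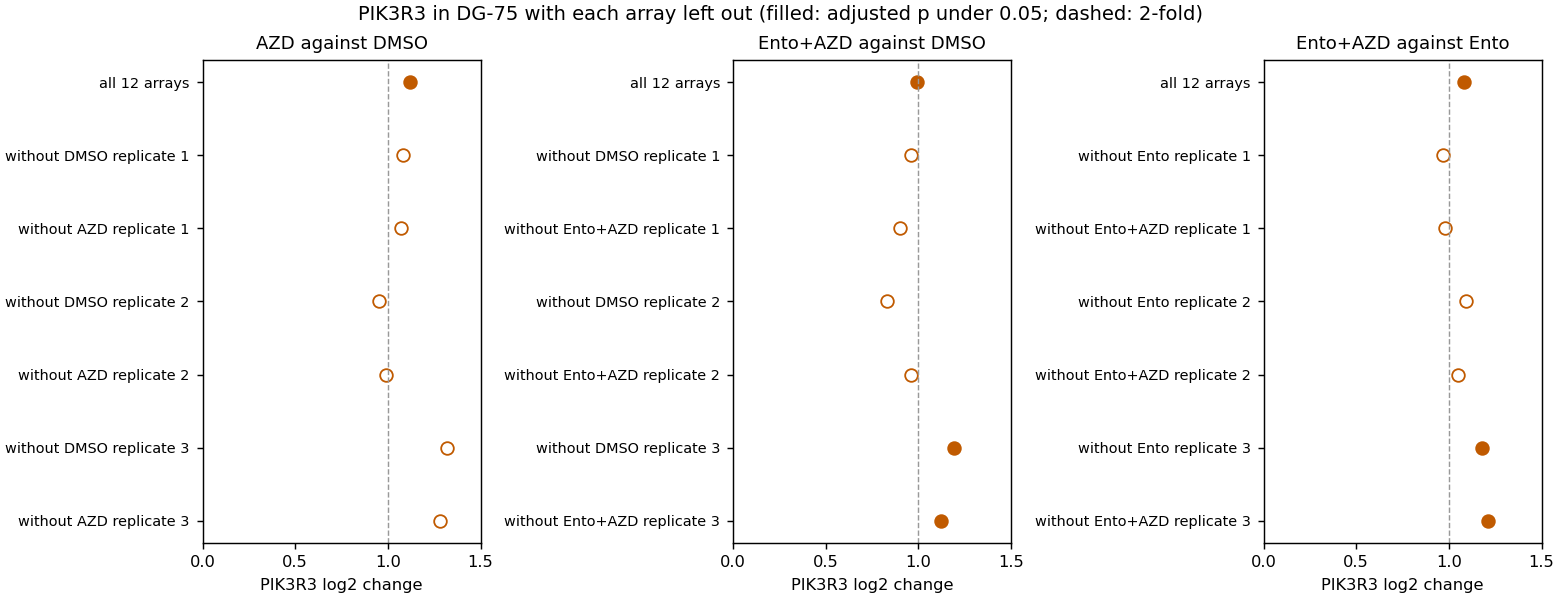
PIK3R3 log2 change in DG-75 (x axis) in the fit of all 12 arrays and with each array of the comparison left out (y axis), for AZD against DMSO, Ento+AZD against DMSO and Ento+AZD against Ento. Filled points have an adjusted p under 0.05 and the dashed line marks a 2-fold change; every change lies between 0.83 and 1.32.

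PIK3R3 overlaps other annotated features, among them LOC101929626, an uncharacterized RNA gene with a row of its own. LOC101929626 had means of 1.84 with DMSO, 2.51 with AZD and 2.15 with Ento+AZD in DG-75, all within the range of the T-cell markers there, so that its row does not settle whether the overlapping RNA changed. Which PIK3R3 transcript its row measured was not worked out here. The genes whose pattern was most like that of PIK3R3, over the 24 arrays after each line's mean was subtracted, were MXD4 (Pearson r = 0.876, Spearman rho = 0.835), PRKAG1 (r = 0.873, rho = 0.875) and COPZ1 (r = 0.85, rho = 0.815). MXD4 is a MAX-binding repressor, PRKAG1 a subunit of the energy sensor AMPK and COPZ1 a coat protein of transport vesicles. These arrays share treatments and replicate numbers, and the 3 genes were picked as the highest values, so the correlations describe likeness only.

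The catalytic subunit and the other regulators of PI3K did not pass the test against DMSO in either line. PIK3CD encodes p110 delta, the catalytic subunit of leukocytes. In SU-DHL-4 it stood at 7.18, 7.19 and 7.10 with DMSO, at 6.94, 6.87 and 7.10 with Ento, at 6.88, 6.68 and 6.66 with AZD and at 6.91, 6.8 and 6.76 with Ento+AZD. All AZD and Ento+AZD arrays lay under all DMSO arrays, a pattern shared in that direction by 12.9% of rows for AZD and 16.0% for Ento+AZD. The change was -0.41 with AZD (95% interval -0.71 to -0.11, adjusted p = 0.275) and -0.33 with Ento+AZD (95% interval -0.63 to -0.03, adjusted p = 0.295) in limma. In DG-75 the changes were -0.27 and -0.09 with overlapping groups, and over both lines AZD gave -0.34 (unadjusted p = 0.00825, adjusted p = 0.105 with limma). The antisense RNAs PIK3CD-AS1 and PIK3CD-AS2, which overlap the gene, changed by -0.50 and 0.03 with AZD in SU-DHL-4 and did not pass either.

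PIK3IP1 encodes a membrane protein that binds p110 and restrains PI3K. In DG-75 it stood at 6.92, 7.27 and 6.98 with DMSO, at 6.82, 6.83 and 6.79 with Ento, at 7.30, 7.29 and 7.13 with AZD and at 7.69, 7.23 and 7.47 with Ento+AZD. Ento arrays lay under all others, as they lay under DMSO in 3.56% of rows, and the largest contrast was Ento+AZD against Ento at 0.65 (95% interval 0.31 to 0.99, adjusted p = 0.0677 with limma), which missed the threshold. Against DMSO the change was -0.24 with Ento, 0.18 with AZD and 0.41 with Ento+AZD, with adjusted p of 1.0, 0.681 and 0.221 in limma. In SU-DHL-4 all 3 Ento arrays, at 7.58, 7.99 and 7.45, lay above the DMSO arrays at 7.35, 7.38 and 7.31, as did 4.05% of rows, and the change of 0.32 (95% interval 0.01 to 0.64, adjusted p = 0.572) did not pass.

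PIK3R1 encodes p85 alpha, the main regulatory subunit, and INPP5D encodes SHIP1, a phosphatase that removes a phosphate from PIP3. PIK3R1 spanned only 8.38 to 8.56 over the 8 group means, and its changes against DMSO lay between -0.13 and 0.14 with 95% intervals inside -0.47 and 0.50. INPP5D changed by 0.19 with AZD and 0.23 with Ento+AZD in DG-75 (adjusted p = 0.605 and 0.458 with limma) and by -0.13 and -0.01 in SU-DHL-4. A p above the threshold does not show that these levels were equal, and the intervals give the sizes that remain possible.

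Of the FOXO factors, which regulate B-cell development, none passed the test against DMSO. FOXO1, the main FOXO factor of B cells, stood in SU-DHL-4 at 7.57, 7.81 and 7.75 with DMSO, at 7.95, 8.15 and 7.86 with Ento, at 7.47, 8.02 and 7.95 with AZD and at 7.98, 8.19 and 7.83 with Ento+AZD. Every Ento and Ento+AZD array lay above every DMSO array, with changes of 0.28 (adjusted p = 0.646) and 0.29 (adjusted p = 0.437) in limma, and 4.05% and 4.84% of rows showed the same separation upward. In DG-75 FOXO1 stood at 6.6, 6.33 and 6.43 with DMSO and at 6.79, 6.51 and 6.77 with Ento+AZD, groups that overlapped. Over both lines the change was 0.25 with Ento (unadjusted p = 0.0105, adjusted p = 0.693) and 0.27 with Ento+AZD (unadjusted p = 0.00645, adjusted p = 0.0656), and neither passed limma's test.

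FOXO3 spanned 7.22 to 7.53 over the 8 group means, and its changes against DMSO lay between -0.27 and 0.17. Its AZD group in SU-DHL-4 held the lowest array, 6.85, beside 7.43 and 7.50. FOXO4 was the widest of the FOXO factors in SU-DHL-4 replicates, with an SD of 0.38 with Ento and with AZD, and its change with AZD there was -0.52 (95% interval -1.01 to -0.04, adjusted p = 0.399 with limma), with groups that overlapped. KLF2, a transcription factor of quiescent lymphocytes that FOXO1 drives, stood in DG-75 at 6.07, 6.11 and 6.12 with DMSO, at 6.49, 6.28 and 6.21 with AZD and at 6.31, 6.55 and 6.18 with Ento+AZD. Both treated groups lay above DMSO, as 4.5% of rows did for AZD and 4.79% for Ento+AZD. The changes of 0.23 (adjusted p = 0.547) and 0.25 (adjusted p = 0.46) did not pass in limma. In SU-DHL-4 KLF2 changed by -0.15 to -0.03.

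**Figure D3:**
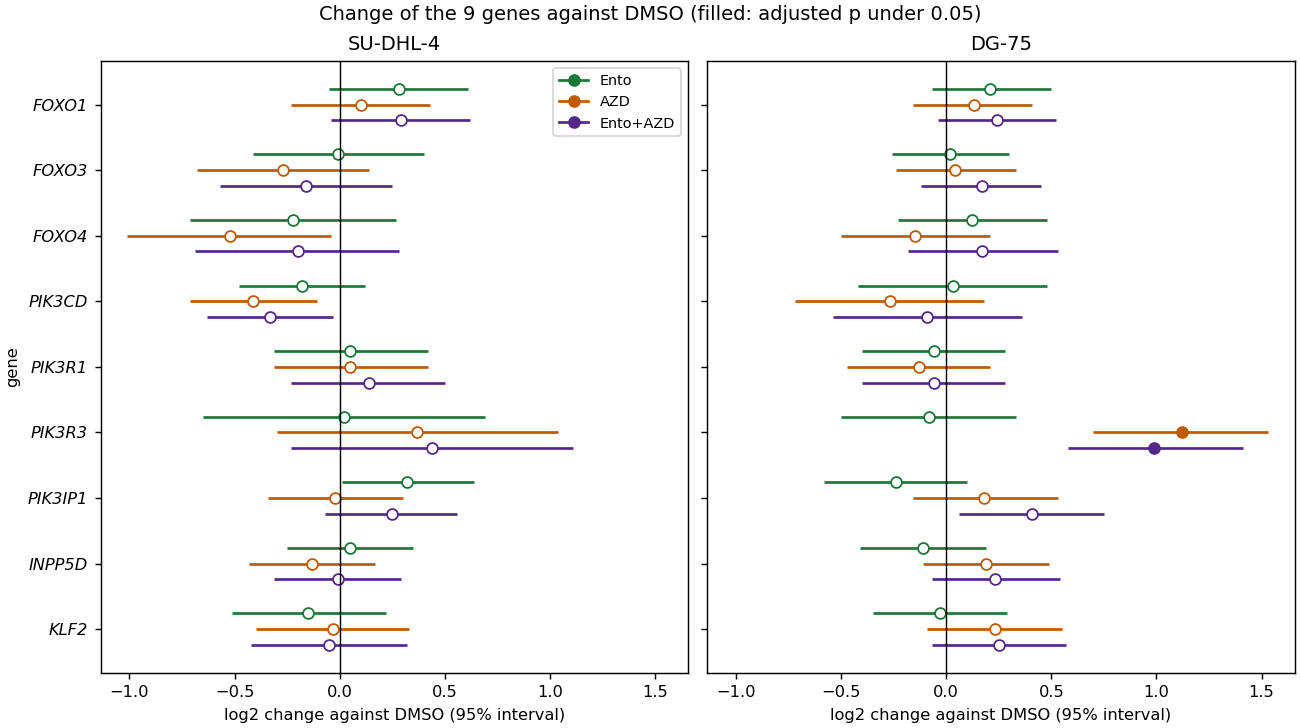
Log2 change against DMSO (x axis) with its 95% interval for each of the 9 genes (y axis) with Ento, AZD and Ento+AZD, in SU-DHL-4 on the left and DG-75 on the right, from fits of 3 arrays per group. The only filled points, which mark an adjusted p under 0.05, are those of PIK3R3 in DG-75 with AZD (1.12) and Ento+AZD (0.99).

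Over the 9 genes the median change in DG-75 was -0.03 with Ento, 0.13 with AZD and 0.23 with Ento+AZD. The median over all rows there was -0.0, -0.06 and -0.07. In SU-DHL-4 the median of the 9 genes was 0.02 with Ento, -0.03 with AZD and -0.01 with Ento+AZD. The median over all rows was -0.06, -0.08 and -0.08. All rows include many at lower levels than these 9 genes, and a shift of the set was not tested. With Ento 0 of the 9 genes passed in either line, where 0.0547% of all rows passed for SU-DHL-4 cells and 0.00391% for DG-75 cells. An unadjusted p under 0.05 was seen for 1 of the 9 in SU-DHL-4, beside 8.59% of rows, and for 0 of the 9 in DG-75, beside 2.81%. With AZD and with Ento+AZD in SU-DHL-4, 0 of the 9 passed in limma, as 0.207% and 2.36% of rows did, and 2 and 1 had an unadjusted p under 0.05, as 11.5% and 14.0% of rows did. All comparisons with DMSO within a line use the same DMSO arrays.

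FOXO1, PIK3CD and INPP5D differed between the lines. Under DMSO FOXO1 stood at 7.57, 7.81 and 7.75 in SU-DHL-4 and at 6.6, 6.33 and 6.43 in DG-75, a difference of 1.26 (95% interval 0.93 to 1.58, 2.39-fold, adjusted p = 3.32e-06 with limma). FOXO1 was the 1 gene of the 9 that was called, as were 7.24% of rows. Over all 24 arrays the 12 of DG-75 lay between 6.33 and 6.82 and the 12 of SU-DHL-4 between 7.47 and 8.19, so that the lines stayed apart under every treatment.

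PIK3CD under DMSO stood at 7.18, 7.19 and 7.10 in SU-DHL-4 and at 6.27, 6.0 and 6.37 in DG-75, higher in SU-DHL-4 by 0.94 (95% interval 0.59 to 1.29, adjusted p = 0.000286 with limma). INPP5D stood at 9.17, 9.32 and 9.16 against 8.48, 8.80 and 8.62, higher by 0.58 (95% interval 0.30 to 0.87, adjusted p = 0.0038). FOXO1, PIK3CD and INPP5D thus passed the test, as 18.1% of rows did, and PIK3CD and INPP5D did not reach a 2-fold difference. Across all treatments PIK3CD lay between 6.66 and 7.19 in SU-DHL-4 and between 5.69 and 6.47 in DG-75, and INPP5D between 8.94 and 9.41 and between 8.38 and 8.92. The INPP5D difference no longer passed when all arrays numbered 1 (adjusted p = 0.109) or 3 (adjusted p = 0.0576) were left out.

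The other 6 genes did not pass between the lines. The differences were 0.54 for PIK3R3, 0.43 for FOXO4, 0.31 for FOXO3, 0.29 for PIK3IP1, 0.11 for KLF2 and -0.09 for PIK3R1, with limma's adjusted p from 0.151 to 0.816. In all, 5 of the 9 genes had DMSO arrays that were all higher in SU-DHL-4, as did 16.1% of rows. None of the 9 genes passed a test of a difference between the lines in the response to Ento, AZD or Ento+AZD, where 0.00782%, 0% and 0.0352% of rows did.

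**Figure D4:**
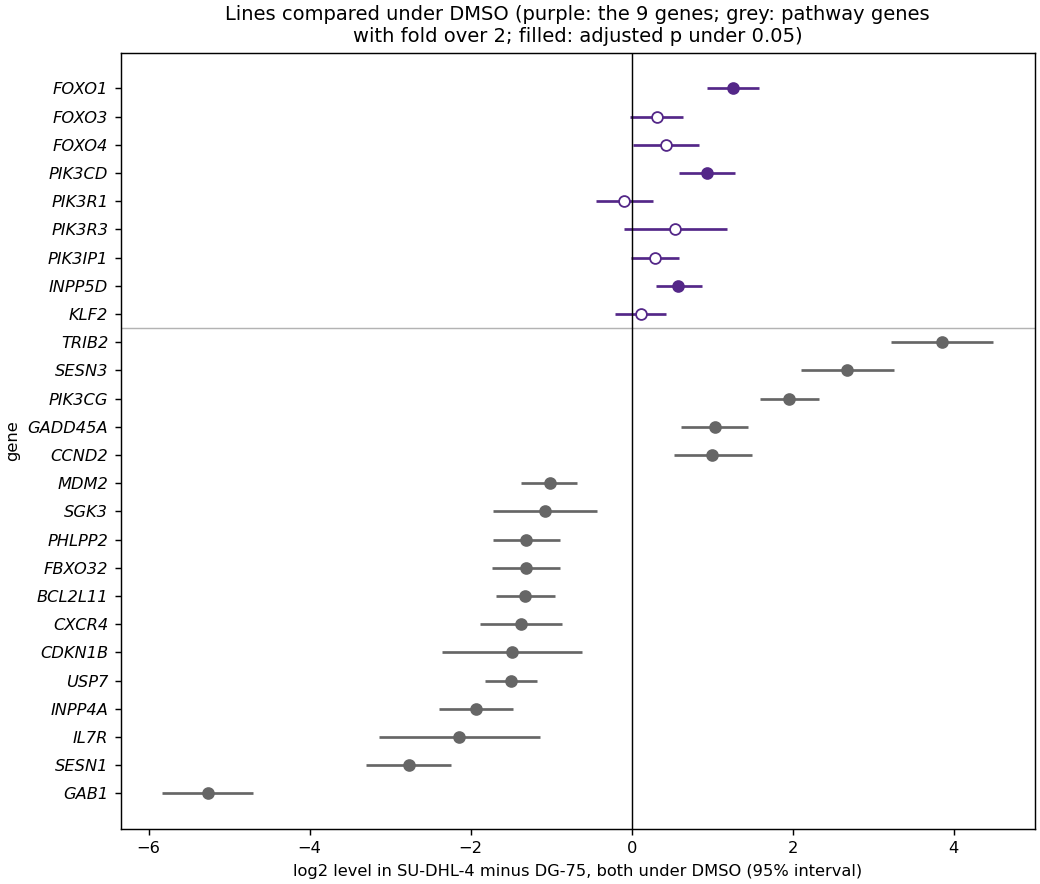
Log2 level in SU-DHL-4 minus DG-75 under DMSO (x axis) with its 95% interval for the 9 genes (purple) and for the other PI3K and FOXO pathway genes that were called (grey), with 3 arrays per line. FOXO1 (1.26), PIK3CD (0.94) and INPP5D (0.58) are filled, which marks an adjusted p under 0.05, and the points of GAB1 and TRIB2 rest on 1 line whose mean lay in the range of the T-cell markers.

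A further 82 genes of the pathway, in 6 lists, were measured on the same arrays. The lists were chosen with earlier results of these data known. Counts from them, set beside shares of all rows here and below, therefore cannot show enrichment. Of 11 class I PI3K subunits and adaptors, 8 lipid and AKT phosphatases, 16 AKT and mTOR kinases and 12 FOXO cofactors, only SGK1 and SKP2 passed against DMSO within a line, both of them with Ento+AZD in SU-DHL-4, where 2.36% of all rows passed, and SKP2 also with Ento+AZD in DG-75, where 2.39% did. SKP2, the F-box protein that marks FOXO1 and p27 for degradation, stood in SU-DHL-4 at 8.86, 8.81 and 9.23 with DMSO and at 8.13, 7.49 and 8.01 with Ento+AZD. It fell by 1.08 there (adjusted p = 0.00668), in DG-75 by 0.75 with the combination (adjusted p = 0.0493), and by 0.68 with AZD over both lines (adjusted p = 0.00343), all in limma and with groups that did not overlap. SGK1, a kinase that shares substrates with AKT, rose by 1.59 with Ento+AZD in SU-DHL-4 (adjusted p = 0.0305), from 4.35, 5.19 and 5.39 to 6.96, 6.30 and 6.45.

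Of 11 FOXO targets of lymphocytes, 1 passed with Ento, 0 with AZD and 2 with Ento+AZD in SU-DHL-4, beside 0.0547%, 0.207% and 2.36% of all rows. In DG-75 the counts were 0, 1 and 4, beside 0.00391%, 0.293% and 2.39%. With Ento, BACH2, a repressor of plasma cell fate, rose by 1.32 in SU-DHL-4 (adjusted p = 0.00936). With Ento+AZD in SU-DHL-4 BACH2 rose by 1.17 (adjusted p = 0.00567), while IL7R, the interleukin 7 receptor, fell by 1.69 (adjusted p = 0.0349) to 4.75, 4.10 and 3.13, of which the lowest lay within the range of the T-cell markers. The size of this IL7R fall is thus not settled. IL7R was lower in DG-75 as well, at 8.0, 7.81 and 7.66 with DMSO, at 4.59, 6.22 and 6.27 with AZD and at 5.66, 5.75 and 6.28 with Ento+AZD, and it fell by 2.13 (adjusted p = 0.0471) and 1.93 (adjusted p = 0.0215). The homing receptor CCR7 and the activation marker CD69 (1.66) rose with Ento+AZD in DG-75, with adjusted p of 0.0162 and 0.0188 in limma, and the CCR7 group overlapped with DMSO. The CCR7 response of SU-DHL-4 was lower than that of DG-75 (adjusted p = 0.0126). Its Ento+AZD mean of 3.89 in SU-DHL-4 and its lowest DMSO array of 3.69 in DG-75 lay within the range of the T-cell markers, so that the sizes of its changes are not settled. All these adjusted p are limma's over all rows.

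Of 24 FOXO targets of cell cycle, death and metabolism, CDKN1B, which encodes the cell cycle inhibitor p27, fell in SU-DHL-4 by 1.37 with AZD (adjusted p = 0.0312) and by 1.39 with Ento+AZD (adjusted p = 0.00478). It stood there at 6.72, 5.58 and 7.0 with DMSO, at 5.64, 4.13 and 5.43 with AZD and at 5.40, 4.30 and 5.43 with Ento+AZD, and the AZD group overlapped with DMSO. DDIT4, an inhibitor of mTOR complex 1, fell by 1.19 with Ento+AZD in SU-DHL-4 (adjusted p = 0.0355). In DG-75 TXNIP, a brake on glucose uptake, rose by 1.05 with AZD (adjusted p = 0.0471) and by 1.14 with Ento+AZD (adjusted p = 0.0115), and SESN3, a sestrin that restrains mTOR complex 1, rose by 1.59 with Ento+AZD (adjusted p = 0.0221). These adjusted p are limma's.

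In all, 1 of the 82 genes rose and 0 fell with Ento in SU-DHL-4, where 0.0547% of all rows passed. An unadjusted p under 0.05 in limma was seen there for 13 of the 82, beside 8.59% of rows. With AZD 0 rose and 1 fell, beside 0.207% of rows, and with Ento+AZD 2 rose and 4 fell, beside 2.36%. In DG-75, 0 of the 82 passed in limma with Ento, beside 0.00391% of rows, and 1 had an unadjusted p under 0.05, as 2.81% of rows did. With AZD 1 rose and 1 fell there, beside 0.293% of rows, and with Ento+AZD 5 rose and 2 fell, beside 2.39%. The median change of the 82 with Ento+AZD was -0.06 in SU-DHL-4, beside -0.08 over all rows, and -0.02 in DG-75, beside -0.07. Over both lines 6 rose and 6 fell with Ento+AZD, where 8.49% of all rows passed, among them the catalytic subunit PIK3CG (0.37, adjusted p = 0.0222) and the 14-3-3 protein YWHAE (-0.31, adjusted p = 0.0245) in limma. With 1 array or 1 replicate number left out, the number of the 82 that were called ran in SU-DHL-4 from 0 to 1 for Ento, from 0 to 1 for AZD, where CDKN1B was the 1 gene called with all arrays, and from 0 to 5 for Ento+AZD, while over all rows it ran from 2 to 7, 0 to 119 and 0 to 330. For Ento+AZD in DG-75 it was 6 with all arrays and 0 to 4 in such fits, with 0 to 272 over all rows, and for AZD in DG-75 it was 2 with all arrays and 0 in every such fit, as it was 0 over all rows.

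**Figure D5:**
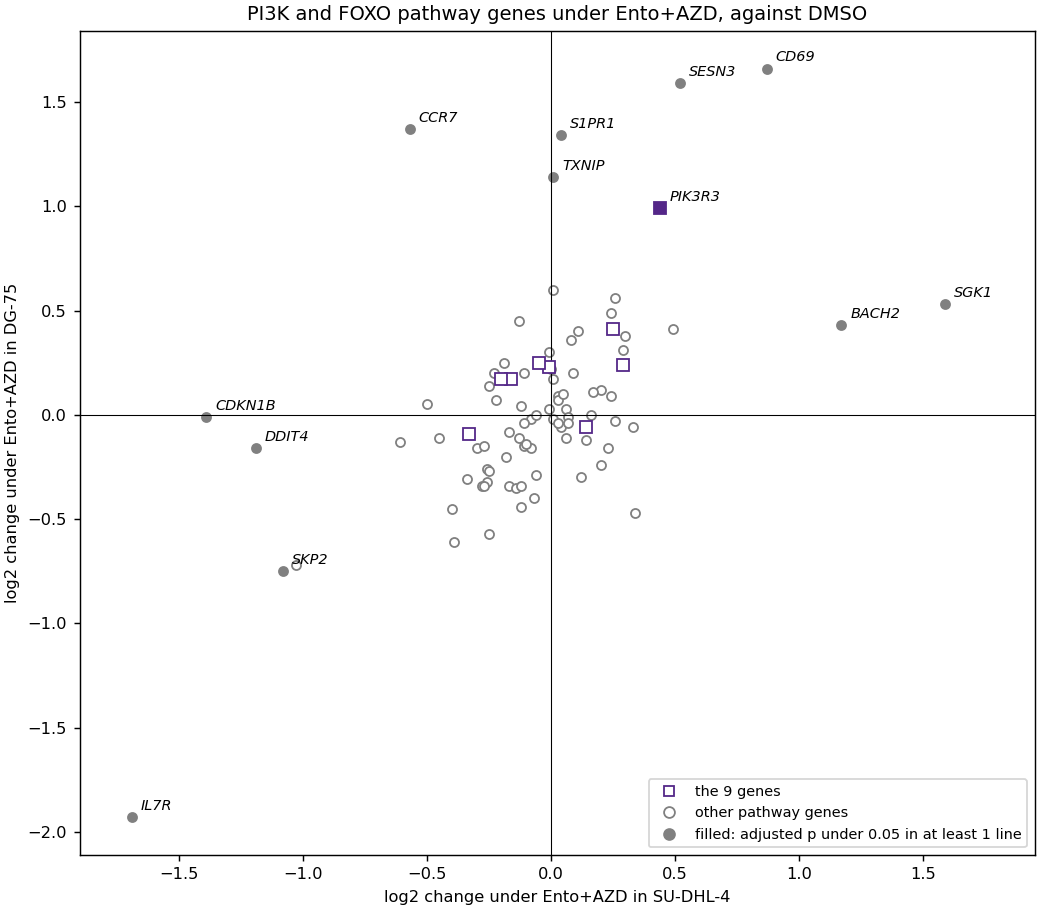
Log2 change with Ento+AZD against DMSO in SU-DHL-4 (x axis) and DG-75 (y axis) for the 9 genes (squares) and 82 further pathway genes (circles), each point from 3 arrays per group. Filled and named points have an adjusted p under 0.05 in at least 1 line; PIK3R3 (0.44 and 0.99) is the only one of the 9 among them, and IL7R (-1.69 and -1.93) lies lowest.

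Between the lines under DMSO, 10 of the 82 genes were higher and 18 lower in SU-DHL-4 in limma, as 7.91% and 10.2% of rows were, and 17 were called, as were 7.24% of rows. GAB1, a docking adaptor for PI3K, stood at a mean of 2.84 in SU-DHL-4 against 8.10 in DG-75 (adjusted p = 7.38e-12). The lower value lay within the range of the T-cell markers, so that GAB1 was lower in SU-DHL-4 by a size that these values do not settle. PIK3CG was higher by 1.96 (adjusted p = 3.67e-08), and of the phosphatases INPP4A and PHLPP2 stood at -1.93 and -1.31. Among FOXO modifiers the deubiquitinase USP7 stood at -1.5 and the ubiquitin ligase MDM2 at -1.02, and the AKT-related kinase SGK3 at -1.08. Among the targets TRIB2, with means of 7.51 for SU-DHL-4 and 3.65 for DG-75, was likewise higher by a size that is not settled, since its DG-75 mean lay within that range. SESN3 (2.68) was higher in SU-DHL-4, and SESN1 (-2.77), IL7R (-2.14), CDKN1B (-1.49), CXCR4 (-1.37) and BCL2L11 (-1.32) were lower.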

How the data were processed

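Gene expression of SU-DHL-4 and DG-75 was measured on 24 Clariom D arrays. The authors deposited log2 expression values, produced by RMA (robust multi-array averaging) and mapped to gene symbols. RMA equalizes probe intensity distributions between arrays, so that a shift common to all genes is not seen. RMA works in log2, which the table itself does not state, and genome build and software versions are not given in the sources used here. Column names identified the samples, and 0 columns of values were left over.

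Changes were computed in R 4.3.3 with limma 3.58.1 (lmFit and eBayes) on all 25575 rows, with Benjamini-Hochberg adjustment per contrast. The lines had separate fits, with treatment and replicate number as terms; the number stood for the batch term of the study's methods, which do not say what the batch was. Contrasts over both lines, between responses of the lines and between lines under DMSO used fits across lines. Calls required an adjusted p under 0.05 and a fold change over 2. Precision is limited by having only 3 arrays a group.

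All 9 genes are named. Further genes were named per list and comparison with DMSO, up to 3 with the smallest adjusted p under 0.05, and between lines up to 3 called genes per direction with the largest difference. Not every gene within these limits is named. The genes and lists were chosen with earlier results of these data known. Some genes of the pathway and marker lists are not reported here, and the counts for those lists leave them out. The fits were tested on simulated data. Promoter sequences are from RefSeq, GRCh38.p14, in which all 9 genes were matched by symbol. Alternatives were a fit without the replicate number, other scalings, filters and variance priors, no fold minimum, and omission of arrays.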

Additional observations from a re-analysis of the deposited data

Results flagged for a closer look

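For 2 of the 9 genes, all same-numbered differences from DMSO went one way in SU-DHL-4 and the other way in DG-75. PIK3IP1 with Ento stood at 0.23, 0.61 and 0.13 above DMSO in SU-DHL-4 and at -0.10, -0.44 and -0.19 in DG-75, and the responses differed by 0.57 (95% interval 0.14 to 0.99, unadjusted p = 0.0116, adjusted p = 1.0 with limma). PIK3R1 with Ento+AZD stood at 0.21, 0.01 and 0.18 in SU-DHL-4 and at -0.05, -0.07 and -0.06 in DG-75, and the responses differed by 0.19 (95% interval -0.28 to 0.66, adjusted p = 0.939 with limma). Neither difference between the lines passed the test. These differences join arrays by number, and not every same-numbered pair deviated together.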

How the results depend on the processing

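Counts are of the 9 genes called. Over 19 comparisons and settings other than leaving out arrays, 117 of 129 counts stayed within 1.5 times and 12 moved. Most of the 19 comparisons had a count of 0 with all arrays, and a 0 that stayed 0 was taken as unmoved. These totals therefore say little about the calls themselves. For AZD against DMSO in DG-75 the count of 1 (PIK3R3) became 0 without the replicate block, with 1 fit of all 24 arrays, with quantile normalization and with array medians subtracted. Without the block it also went from 1 to 0 where Ento+AZD was set against Ento in DG-75. For Ento+AZD against DMSO in DG-75 it went from 0 to 1 with quantile normalization, with array medians subtracted and with no fold minimum, and the last setting also took AZD and Ento+AZD over both lines from 0 to 1. Between lines under DMSO it went from 1 to 2 with quantile normalization and to 3 with no fold minimum. The cause was not tested. With arrays or a replicate number left out, 200 of 219 counts stayed within 1.5 times, again mostly a 0 that stayed 0. Where a gene was called with all arrays, the count held less often. It held in 0 of 9 such fits for AZD against DMSO in DG-75. For Ento+AZD against Ento there it held in 3 of 9, and between lines in 7 of 9. The range of the count was 0 to 0 for AZD in DG-75, 0 to 1 for Ento+AZD against DMSO and against Ento there, and 1 to 3 between lines. Same-numbered arrays deviated together only in part, with r from -0.111 to 0.394 in SU-DHL-4 (12 of 18 pairs over 0.1) and from -0.355 to 0.344 in DG-75 (7 of 18). Among pairs of different number the count over 0.1 was 1 of 36 for SU-DHL-4 and 11 of 36 for DG-75, with medians of -0.0694 and -0.0138 against 0.15 and 0.0405 for the same number. Same-numbered arrays thus deviated together more often than others in SU-DHL-4, though not in every pair. In DG-75 they did so only by a small margin. The numbers were kept as a block in place of the batch of the study's methods, and the PIK3R3 results passed only with it.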
